A study of Mus musculus with 4 samples.

Results

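Transcript levels of 43 genes of glycolysis and of the hypoxia response were followed in 4 RNA sequencing libraries of cultured mouse cells. The genes were taken by symbol from a list, and each matched 1 of the 23358 gene rows of every library. By role they comprised 4 transporters of glucose and lactate, 16 glycolytic enzymes, 4 regulators of glycolytic flux, 3 subunits of hypoxia-inducible factor (HIF), 5 genes of oxygen sensing and HIF turnover and 11 further HIF targets. The libraries came from 2 cell lines, with 2 libraries each, that the submitters class as progenitors of interstitial cells of Cajal (ICC), which pace the contractions of the gut wall. The line 2xSCS2F10 derives from gastric tunica muscularis of C57BL/6J mice; its cultures were held at 37 °C and their medium was supplemented with 5% chick embryo extract. The other, 2xSCS70, derives from the same layer of H-2Kb-tsA58 mice. In that strain an H-2Kb promoter, which interferon induces, drives an SV40 large T antigen that loses function at raised temperature, and the cultures were held at 39.5 °C, lacking interferon gamma. Both were kept in a medium made for the proliferation of neural stem cells, so that line, strain, temperature and chick embryo extract changed together and their parts cannot be told apart. Each group is 1 cell line, and nothing in the labels says that the 2 libraries of a line were separate cultures, and p-values therefore reflect the spread among libraries alone, and that spread may be technical.

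Glycolysis splits glucose into pyruvate in the cytosol, and lactate dehydrogenase turns pyruvate into lactate, which leaves the cell through monocarboxylate transporters. HIF is a pair of proteins, an oxygen-labile alpha subunit (HIF-1α from Hif1a, HIF-2α from Epas1) and the stable partner ARNT. With oxygen present, prolyl hydroxylases (Egln1, Egln2, Egln3) mark the alpha subunit for the VHL ubiquitin ligase, so that its control lies largely at the protein level, which RNA libraries do not measure. When oxygen falls, HIF binds short DNA elements with the core ACGTG or GCGTG and raises transcription of glucose transporters, most glycolytic enzymes, the lactate exporter Slc16a3 and, in feedback, of Egln3.

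The libraries held 20159986 to 24485632 fragments in genes, and a floor of 3 fragments corresponded to 0.109 to 0.157 CPM (counts relative to library size, scaled here with the TMM method). The share of fragments assigned to Rn45s, the ribosomal RNA precursor, was 3.74% and 8.27% in replicates 1 and 2 of 2xSCS2F10 and 2.22% and 5.92% in those of 2xSCS70. Of 4 markers of interstitial cells of Cajal, the receptor Kit had 0 fragments in 3 libraries and 1 in replicate 2 of 2xSCS70. The channel Ano1 had 29.8 and 18.4 CPM in 2xSCS2F10 against 2.29 and 2.55 CPM in 2xSCS70. Gja1 had 148 and 133 CPM in 2xSCS2F10 against 93.8 and 99.2 CPM in 2xSCS70. Etv1 went the other way, with 0.0514 and 0.367 CPM against 0.544 and 0.781 CPM, on 1 to 19 fragments. Kit, the defining receptor of mature ICC, was thus at or near 0 in both lines, which the submitters class as progenitors of ICC. The 5 progenitor markers summed to 461 and 443 CPM in 2xSCS2F10 against 747 and 712 CPM in 2xSCS70. Of these, Cd34 and Cd44 were higher in both 2xSCS70 libraries and Igf1r was lower. Summed levels of 8 smooth muscle markers were 5439.8 and 9689.6 CPM in 2xSCS2F10 against 839.97 and 777.6 CPM in 2xSCS70, and those of 6 mesothelial markers were 3413 and 3916 CPM against 90.7 and 80.9 CPM. The 5 markers of enteric neurons summed to 282 and 259 CPM against 16.7 and 11.5 CPM, nearly all of it Uchl1, and immune, endothelial, glial and red blood cell lists to at most 9.34 CPM in any library. The part of these marker differences in the results below was not tested, and in such bulk libraries fewer cells of a type and less RNA per cell cannot be told apart.

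The sequences before the start sites of 7 genes are shown because these genes carry the results on the 2xSCS2F10 libraries given further down: the first 6 were at least 2-fold higher in replicate 2 than in replicate 1 of that line, and Slc16a1, short of that limit, was lower. Each line gives the 250 bases upstream of the RefSeq start site, on build GRCm38.p6 and on the strand of the gene, with every ACGTG and GCGTG, read on either strand (also CACGT and CACGC), in capitals.
Bnip3, chr7:138909507-138909756, minus strand: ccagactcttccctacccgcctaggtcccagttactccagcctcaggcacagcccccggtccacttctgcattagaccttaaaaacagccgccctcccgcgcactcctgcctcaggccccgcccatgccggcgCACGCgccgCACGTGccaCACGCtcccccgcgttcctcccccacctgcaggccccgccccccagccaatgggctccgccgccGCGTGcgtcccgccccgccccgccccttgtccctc
Ankrd37, chr8:45999851-46000100, minus strand: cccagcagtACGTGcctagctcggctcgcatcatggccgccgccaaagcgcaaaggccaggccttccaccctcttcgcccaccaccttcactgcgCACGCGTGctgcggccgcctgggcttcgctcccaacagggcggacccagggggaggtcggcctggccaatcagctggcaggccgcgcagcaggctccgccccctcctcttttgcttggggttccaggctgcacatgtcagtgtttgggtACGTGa
Slc16a3, chr11:120948817-120949066, plus strand: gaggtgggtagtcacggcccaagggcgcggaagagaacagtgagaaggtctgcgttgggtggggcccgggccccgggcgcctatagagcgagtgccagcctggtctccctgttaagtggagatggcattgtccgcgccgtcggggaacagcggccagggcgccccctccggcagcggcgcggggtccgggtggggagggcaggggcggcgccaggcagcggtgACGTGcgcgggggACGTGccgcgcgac
Aldoc, chr11:78323948-78324197, plus strand: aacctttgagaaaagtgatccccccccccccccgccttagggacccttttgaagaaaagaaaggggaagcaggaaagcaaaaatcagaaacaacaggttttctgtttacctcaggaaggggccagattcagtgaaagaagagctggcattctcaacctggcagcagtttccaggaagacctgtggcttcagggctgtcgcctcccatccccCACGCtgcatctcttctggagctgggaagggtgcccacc
Pdk1, chr2:71872974-71873223, plus strand: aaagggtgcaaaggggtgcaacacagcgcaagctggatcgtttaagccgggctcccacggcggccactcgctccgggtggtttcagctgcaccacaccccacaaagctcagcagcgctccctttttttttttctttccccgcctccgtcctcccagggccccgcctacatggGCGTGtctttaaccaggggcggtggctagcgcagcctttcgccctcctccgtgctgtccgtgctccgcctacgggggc
Eno2, chr6:124769674-124769923, minus strand: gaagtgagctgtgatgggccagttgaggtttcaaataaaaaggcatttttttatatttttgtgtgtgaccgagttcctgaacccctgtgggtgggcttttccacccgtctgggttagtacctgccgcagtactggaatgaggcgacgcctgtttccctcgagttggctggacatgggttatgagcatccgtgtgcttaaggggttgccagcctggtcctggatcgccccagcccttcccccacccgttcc
Slc16a1, chr3:104638414-104638663, plus strand: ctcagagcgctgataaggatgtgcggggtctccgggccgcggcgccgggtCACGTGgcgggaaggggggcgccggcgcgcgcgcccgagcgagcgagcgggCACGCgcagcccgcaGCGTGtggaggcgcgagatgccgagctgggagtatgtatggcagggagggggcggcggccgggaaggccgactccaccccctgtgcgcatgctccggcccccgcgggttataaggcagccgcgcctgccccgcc

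The Bnip3 window held ACGTG at 2 places, 1 on each strand of a single CACGTG, and GCGTG at 3 places, the nearest ending 30 bases before the start site. Ankrd37 had 2 of each core, 1 of them next to the start site, and Slc16a3 had 2 ACGTG cores, the nearer ending 9 bases before the start. The windows of Aldoc and Pdk1 held 1 GCGTG each and no ACGTG, and that of Eno2 held neither. Slc16a1, whose ratio between those libraries was 0.529, held 2 of each, its ACGTG matches being 1 on each strand of a single CACGTG. Pfkfb4, lower still at a ratio of 0.511, is not shown, and its window held 1 GCGTG and no ACGTG. The start site used for Slc16a3 lies 583 bases inside the start of its row in the deposited table, and 35 of the 39 members with a window read on from the start into an annotated transcript. Slc2a3, Epas1, Bnip3l and Ndrg1 had no window. ACGTG stood in 20 of the 39 windows (51.3%) against 2152 of 10122 windows of all tested genes (21.3%), GCGTG in 22 (56.4% against 44.5%), and either in 31 (79.5% against 55.3%). These are matches of letters in a short window, on either strand and including overlaps, in genes partly listed because they are HIF targets.

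Between the lines, 18 of the 42 members tested passed the threshold: 5 were higher in 2xSCS70 and 13 were lower. The higher genes were Pfkp, Pgk1, Eno2, Pfkfb4 and Ddit4, and the lower genes were Slc2a3, Slc16a1, Hk2, Gpi1, Aldoc, Gapdh, Ldhb, Pfkfb3, Hif1an, Egln3, Bnip3l, P4ha1 and Mxi1. The test was the quasi-likelihood test of edgeR over 14496 genes, with a threshold of 0.05 on the Benjamini-Hochberg adjusted p, and Adm was not tested because it had at most 3 fragments in any library. Over all tested genes 18.8% were higher and 21.8% lower, or 40.6% in either direction, against 11.9%, 31% and 42.9% of the members. The median log2 change of the members, 2xSCS70 minus 2xSCS2F10, was -0.31 against 0.02 over all genes. The libraries of the lines did not overlap for 11 members that were higher in 2xSCS70 (39.9% of all genes) and for 20 that were lower (37.5% of all genes). With 2 libraries a line, an exact permutation test of a single gene cannot go below a two-sided p of 0.333.

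With 1 library left out, the lone library of that line is assumed to vary like the pair of the other line, so the spread comes from that pair alone. Without replicate 1 or without replicate 2 of 2xSCS70, 0 members were higher and 1, Slc2a3, was lower, while over all genes 291 and 316 were higher and 559 and 573 lower. Without 1 library of 2xSCS2F10, more calls passed over all genes as well as among the members. The member counts of those fits are therefore not read as a result. The folds of the 18 called members were 0.9499 to 1.41 times those from all libraries without replicate 1 of 2xSCS70 and 0.780 to 1.05 times without its replicate 2. They were 0.684 to 1.51 and 0.491 to 1.81 times without replicates 1 and 2 of 2xSCS2F10, with Aldoc and Eno2 at the ends. On the deposited RPKM (counts per coding length and library size) instead of counts, limma called 7 members higher and 4 lower, or 63.6% higher instead of 27.8% of the calls, and the share over all genes was 63.8% instead of 46.3%. Of the 18 calls, 9 were also past the threshold on RPKM, and the 9 others, all of them lower on counts, were Hk2, Gpi1, Gapdh, Pfkfb3, Slc16a1, Hif1an, Bnip3l, P4ha1 and Mxi1. The sign of the 18 called members was the same in every alternative that tested them.

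**Figure D1:**
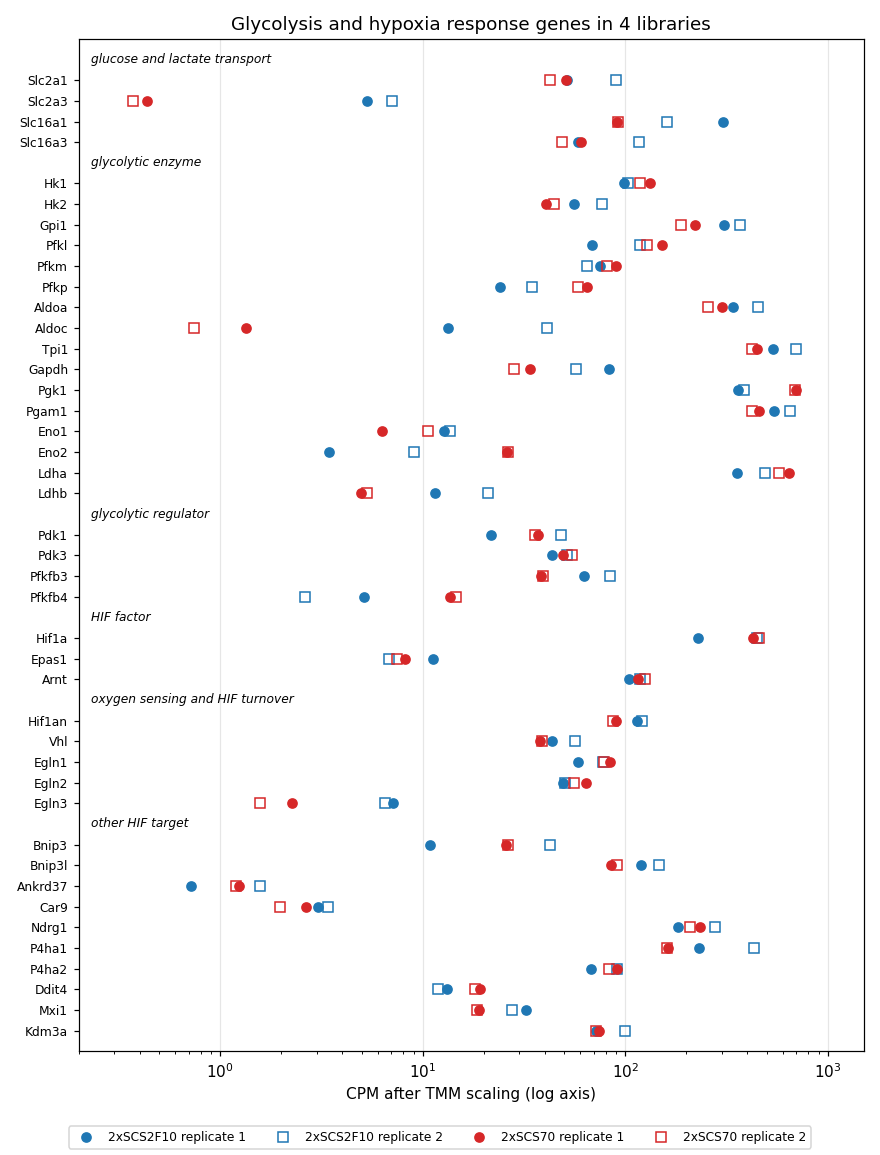
CPM after TMM scaling (log axis) of the 42 members tested, grouped by role, with blue symbols for 2xSCS2F10, red for 2xSCS70, filled for replicate 1 and open for replicate 2. The 2 red symbols lie close together for most genes, while the blue ones lie apart for Bnip3 (10.9 and 42.4 CPM), Aldoc (13.4 and 40.8 CPM) and Hif1a (227 and 446 CPM).

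**Figure D2:**
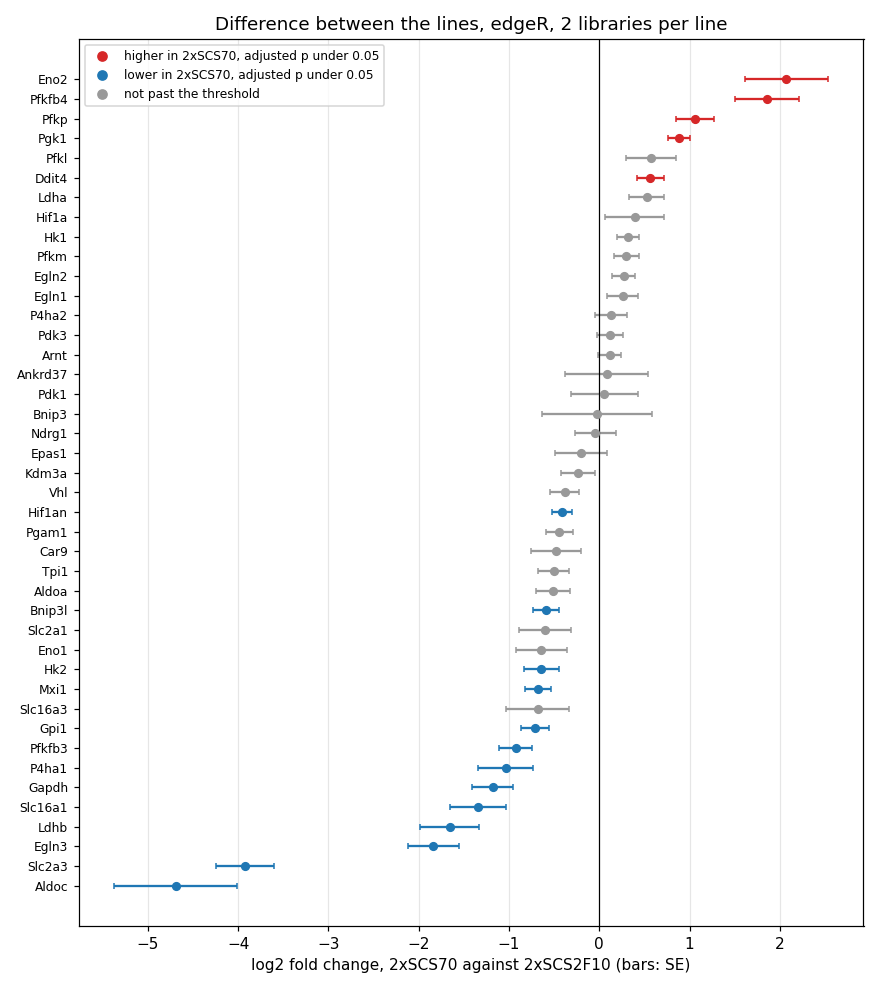
Fitted log2 fold change of 2xSCS70 against 2xSCS2F10 with its SE for the 42 members tested, in order of size, with red for the 5 genes higher and blue for the 13 lower at an adjusted p under 0.05. The values run from -4.69 for Aldoc to 2.07 for Eno2.

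Among the transporters, the lines differed in the minor glucose transporter and in the lactate carrier Slc16a1. Slc2a3, which encodes the high-affinity glucose transporter GLUT3, stood at 5.29 and 7.03 CPM in 2xSCS2F10 (replicates 1 and 2, in that order throughout) and at 0.435 and 0.370 CPM in 2xSCS70. It fell 15.2-fold (log2 -3.92 ± 0.32 SE, edgeR adjusted p = 0.0016), on 103 and 134 fragments against 12 and 9. Both values of 2xSCS70 lay well below both of 2xSCS2F10. Slc2a1, which encodes the widespread transporter GLUT1, had 51.7 and 89.9 CPM against 51.0 and 42.7 CPM and did not pass (log2 -0.60 ± 0.29 SE, edgeR adjusted p = 0.156). It was the main of these 2 transporters in every library: per coding length, Slc2a3 made up 6.24% and 4.84% of their summed RPKM in 2xSCS2F10 and 0.551% and 0.560% in 2xSCS70.

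Slc16a1, the monocarboxylate transporter MCT1 that carries lactate in either direction, had 304 and 161 CPM in 2xSCS2F10 against 90.8 and 92.2 CPM in 2xSCS70. It fell 2.54-fold (log2 -1.34 ± 0.31 SE, edgeR adjusted p = 0.0256), with the lower 2xSCS2F10 library still above both of 2xSCS70. Slc16a3, the HIF-regulated lactate exporter MCT4, had 58.1 and 117 CPM against 60.4 and 48.9 CPM and did not pass (log2 -0.68 ± 0.35 SE, edgeR adjusted p = 0.178). Its share of the RPKM of both carriers was 24.7% and 55.6% in 2xSCS2F10 and 53.3% and 47.7% in 2xSCS70, so that 1 of the 2xSCS2F10 libraries stood apart and the other was above both of 2xSCS70.

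At the first steps of glycolysis, Hk2 and Gpi1 were lower in 2xSCS70 and Hk1 did not pass. Hk2, the inducible hexokinase that traps glucose as its phosphate, had 55.7 and 76.9 CPM in 2xSCS2F10 against 40.7 and 44.3 CPM in 2xSCS70, a 1.56-fold fall near the threshold (log2 -0.64 ± 0.19 SE, edgeR adjusted p = 0.0493) that was lost with upper quartile scaling, with no filter, with a filter at 5 CPM and with limma-voom. Its constitutive relative Hk1 had 98.1 and 104 CPM against 132 and 119 CPM and did not pass (adjusted p = 0.0938 by edgeR). Hk2 thus made up 31.7% and 37.8% of the RPKM of the pair in 2xSCS2F10 and 20.1% and 23.4% in 2xSCS70, with no overlap. Gpi1, which converts glucose 6-phosphate to fructose 6-phosphate, fell 1.64-fold from 305 and 367 CPM to 221 and 189 CPM (log2 -0.71 ± 0.16 SE, edgeR adjusted p = 0.0218).

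Phosphofructokinase catalyses the committed step and is built from liver, muscle and platelet subunits. The platelet subunit Pfkp rose 2.09-fold, from 24.1 and 34.7 CPM in 2xSCS2F10 to 64.5 and 58.3 CPM in 2xSCS70 (log2 1.06 ± 0.21 SE, edgeR adjusted p = 0.0161). Pfkl had 68.8 and 119 CPM against 151 and 128 CPM, and Pfkm 74.6 and 64.8 CPM against 90.4 and 81.3 CPM; neither passed (edgeR adjusted p = 0.161 and 0.135). Pfkp remained the least of the 3 subunits, at 12.3% and 14.1% of their summed RPKM in 2xSCS2F10 and 18.7% and 19.4% in 2xSCS70. The row of Pfkm shares 981 bases with Senp1 and that of Pfkp 276 bases with Pitrm1, and these libraries do not mark strand.

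Aldolase splits the phosphorylated hexose, and its brain-type isoform Aldoc was much lower in 2xSCS70. Aldoc had 13.4 and 40.8 CPM in 2xSCS2F10 against 1.34 and 0.740 CPM in 2xSCS70, on 260 and 778 against 37 and 18 fragments. It fell 25.8-fold (log2 -4.69 ± 0.68 SE, edgeR adjusted p = 0.0073), but the size rested on single libraries: it was 39.0-fold without replicate 1 and 12.7-fold without replicate 2 of 2xSCS2F10. Slc2a3, at 15.2-fold with all libraries, was 13.0-fold lower in that last fit. The muscle-type and far more abundant Aldoa had 339.97 and 454 CPM against 302 and 256 CPM and did not pass (log2 -0.51 ± 0.19 SE, edgeR adjusted p = 0.0864). Aldoc made up 4.04% and 8.80% of the RPKM of the pair in 2xSCS2F10 and 0.474% and 0.309% in 2xSCS70.

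Of the members that act between triose phosphate and pyruvate, Pgk1 and Eno2 were higher and Gapdh lower in 2xSCS70. Pgk1, phosphoglycerate kinase, rose 1.85-fold from 359 and 386 CPM to 692 and 685 CPM (log2 0.89 ± 0.12 SE, edgeR adjusted p = 0.0066). Eno2, the neuronal or gamma enolase, rose 4.21-fold from 3.44 and 9.03 CPM to 26.0 and 26.5 CPM (log2 2.07 ± 0.46 SE, edgeR adjusted p = 0.0223). The libraries of the lines did not overlap for either, and the size for Eno2 was 2.88-fold without replicate 1 and 7.61-fold without replicate 2 of 2xSCS2F10. Tpi1 (536 and 699.99 CPM against 448 and 423 CPM) and Pgam1 (543 and 653 CPM against 458 and 422 CPM) were lower in both 2xSCS70 libraries and did not pass (edgeR adjusted p = 0.0702 and 0.0691). Outside the members, the pyruvate kinase gene Pkm had 1648 and 1686 CPM against 1878 and 1640 CPM and did not pass (edgeR adjusted p = 0.716). The further enolase Eno3 did not pass (edgeR adjusted p = 0.160). It had 31.3 to 36.2 RPKM in the 4 libraries, where Eno2 had 1.01 to 8.66 RPKM.

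Gapdh fell 2.27-fold, from 83.4 and 56.8 CPM to 33.7 and 28.1 CPM (log2 -1.18 ± 0.23 SE, edgeR adjusted p = 0.0153), but its level is uncertain. In the GENCODE M21 annotation its coding sequence had 79 other genes with a stretch of at least 200 bases at 95% identity or more, 75 of them pseudogenes. Whether the counting dropped or split such reads was not tested, and at 18.0 to 52.2 RPKM it lay below Tpi1 (209 to 282 RPKM). Eno1 is uncertain too: a second row, Gm5506, covers 11550 bases of its locus and had 0 fragments in all 4 libraries, and Eno1 itself was at 3.11 to 5.51 RPKM. Its values were 12.7 and 13.6 CPM against 6.31 and 10.6 CPM (edgeR adjusted p = 0.131), and its share of the enolases is not read here for that reason. Pgk1 and Ldha had 4 such copies each, Bnip3 4, and Gpi1, Tpi1, Pgam1, Ldhb and Bnip3l 1 each. Over the 32 tested members with no such copy, 4 were higher (12.5%, against 18.8% of all genes) and 9 lower (28.1%, against 21.8%). Their median log2 change was -0.12, closer to that of all genes (0.02) than the -0.31 of all 42 tested members.

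Lactate dehydrogenase is a tetramer of A and B chains, the A chain from Ldha being the HIF-regulated one. Ldhb had 11.5 and 20.9 CPM in 2xSCS2F10 against 4.97 and 5.30 CPM in 2xSCS70 and fell 3.16-fold (log2 -1.66 ± 0.33 SE, edgeR adjusted p = 0.0161). Ldha had 357 and 489 CPM against 643 and 574 CPM, without overlap, and did not pass (log2 0.53 ± 0.19 SE, edgeR adjusted p = 0.0845). Per coding length the B chain was the minor form throughout, at 4.61% and 6.03% of the pair in 2xSCS2F10 and 1.14% and 1.36% in 2xSCS70. In RPKM the most abundant members were Tpi1, Pgk1, Pgam1, Ldha and Aldoa, between 111 and 337 in every library, and Pgk1 moved from 154 and 138 RPKM in 2xSCS2F10 to 337 and 301 RPKM in 2xSCS70.

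The bifunctional enzymes that make and break fructose 2,6-bisphosphate, the activator of phosphofructokinase, moved in opposite directions. Pfkfb3 fell 1.90-fold, from 62.6 and 84.4 CPM in 2xSCS2F10 to 38.2 and 39.2 CPM in 2xSCS70 (log2 -0.93 ± 0.18 SE, edgeR adjusted p = 0.0155). Pfkfb4 rose 3.62-fold, from 5.14 and 2.62 CPM to 13.6 and 14.5 CPM (log2 1.86 ± 0.35 SE, edgeR adjusted p = 0.0146). The libraries of the lines did not overlap for either gene, and the share of Pfkfb4 in the summed RPKM of these 2 genes was 11.4% and 4.66% in 2xSCS2F10 and 36.0% and 36.8% in 2xSCS70. Of the pyruvate dehydrogenase kinases, which keep pyruvate out of the mitochondrial cycle, Pdk3 had 43.6 to 54.5 CPM in all 4 libraries (edgeR adjusted p = 0.539). Pdk1, a classical HIF target, had 21.8 and 48.1 CPM in 2xSCS2F10 with the 2xSCS70 values of 37.0 and 35.7 CPM between them (log2 0.06 ± 0.37 SE, edgeR adjusted p = 0.912).

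None of the 3 HIF subunit genes passed the threshold between the lines. Hif1a had 227 and 446 CPM in 2xSCS2F10 against 429 and 455 CPM in 2xSCS70 (log2 0.39 ± 0.33 SE, edgeR adjusted p = 0.374), so that replicate 1 of 2xSCS2F10 stood apart from the other 3 libraries. Its log2 change was 0.96 without replicate 2 of 2xSCS2F10 and -0.03 without replicate 1. Epas1 had 11.2 and 6.77 CPM against 8.20 and 7.44 CPM (log2 -0.20 ± 0.29 SE, edgeR adjusted p = 0.606), and Arnt had 105 and 118 CPM against 116 and 126 CPM (log2 0.12 ± 0.13 SE, edgeR adjusted p = 0.492). Per coding length Epas1 was the minor alpha subunit, with 4.20% and 1.33% of the RPKM of both in 2xSCS2F10 and 1.67% and 1.43% in 2xSCS70.

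Of the genes of oxygen sensing and HIF turnover, Egln3 and Hif1an were lower in 2xSCS70 and the other 3 did not pass. Egln3, the prolyl hydroxylase that HIF itself induces, had 7.14 and 6.51 CPM in 2xSCS2F10 against 2.25 and 1.56 CPM in 2xSCS70 and fell 3.57-fold (log2 -1.84 ± 0.28 SE, edgeR adjusted p = 0.0082). Hif1an, the asparagine hydroxylase FIH that blocks the transactivation domain of HIF, fell 1.33-fold from 115 and 121 CPM to 90.2 and 86.8 CPM (log2 -0.42 ± 0.11 SE, edgeR adjusted p = 0.0375). That call of Hif1an was lost with upper quartile scaling and with no filter on low counts. Egln3 made up 6.28% and 5.03% of the RPKM of the 3 prolyl hydroxylases in 2xSCS2F10 and 1.53% and 1.18% in 2xSCS70.

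Egln1, the main oxygen sensor of the family, had 58.4 and 77.6 CPM against 83.7 and 78.9 CPM (log2 0.26 ± 0.17 SE, edgeR adjusted p = 0.276). Egln2 had 49.0 and 50.4 CPM against 64.0 and 56.0 CPM (log2 0.27 ± 0.13 SE, edgeR adjusted p = 0.151), and Vhl, the ligase subunit that recognises the hydroxylated alpha subunit, had 43.6 and 56.1 CPM against 37.7 and 38.7 CPM (log2 -0.39 ± 0.16 SE, edgeR adjusted p = 0.118). For each of these 3 the libraries of the lines did not overlap, yet the difference was not past the threshold.

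Among the 11 further HIF targets, 3 were lower in 2xSCS70, 1 was higher, 6 did not pass and Adm, which encodes adrenomedullin, had 1, 3, 0 and 3 fragments. P4ha1, an alpha subunit of collagen prolyl 4-hydroxylase, fell 2.05-fold from 232 and 433 CPM to 163 and 161 CPM (log2 -1.04 ± 0.31 SE, edgeR adjusted p = 0.0485), a call that was lost with upper quartile scaling, with no filter, with a filter at 5 CPM and with limma-voom. Mxi1, an antagonist of MYC, fell 1.60-fold from 32.4 and 27.6 CPM to 18.9 and 18.6 CPM (log2 -0.68 ± 0.15 SE, edgeR adjusted p = 0.0203). Bnip3l, a mitophagy receptor, fell 1.51-fold from 119 and 146 CPM to 85.1 and 90.9 CPM (log2 -0.59 ± 0.15 SE, edgeR adjusted p = 0.0295). Ddit4, the mTORC1 inhibitor REDD1, rose 1.48-fold from 13.2 and 11.9 CPM to 19.1 and 18.0 CPM (log2 0.56 ± 0.15 SE, edgeR adjusted p = 0.0374).

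The targets that did not pass include the most abundant of them, the differentiation-related Ndrg1, with 181 and 277 CPM against 234 and 209 CPM. Car9, the carbonic anhydrase often used as a marker of hypoxic cells, had 3.03 and 3.41 CPM against 2.65 and 1.97 CPM (log2 -0.48 ± 0.28 SE, edgeR adjusted p = 0.225), on 48 to 73 fragments. P4ha2 had 67.8 and 91.3 CPM against 90.7 and 82.9 CPM, and its share of the RPKM of both prolyl 4-hydroxylase subunits was 33.5% and 26.7% in 2xSCS2F10 and 49.0% and 47.0% in 2xSCS70. The level of P4ha2 itself had both 2xSCS70 values between those of 2xSCS2F10. The histone demethylase Kdm3a (71.4 and 99.7 CPM against 73.8 and 71.7 CPM) showed the same order as P4ha2, Ndrg1, Pdk1, Epas1, Bnip3 and Ankrd37, which made 7 members with 2xSCS70 inside the range of 2xSCS2F10 (16.7%, against 9.39% of all genes).

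**Figure D3:**
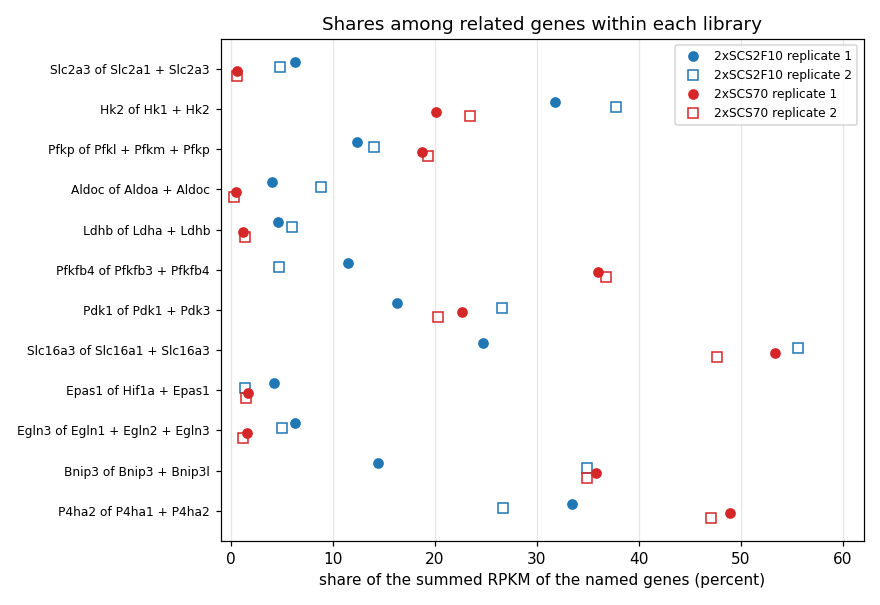
Share of each named gene in the summed RPKM of its related genes, in percent, for the 4 libraries (blue 2xSCS2F10, red 2xSCS70, filled replicate 1, open replicate 2). The lines are apart for Slc2a3, Hk2, Pfkp, Aldoc, Ldhb, Pfkfb4, Egln3 and P4ha2, and overlap for Slc16a3, Pdk1 and Epas1. For Bnip3 they barely miss, with 14.4% and 34.87% in 2xSCS2F10 against 35.8% and 34.94% in 2xSCS70. For every gene shown the 2xSCS2F10 libraries lie further from each other than those of 2xSCS70.

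The 2 libraries of 2xSCS2F10 differed from each other in these genes more than those of 2xSCS70 did. With 1 library on each side there is no test, and the intervals given are exact 95% intervals that cover counting error only. In replicate 2 of 2xSCS2F10, 6 of the 42 members were at least 2-fold above replicate 1 (14.3%, against 6.51% of all genes) and 0 were at least 2-fold below (against 6.82%). Between the replicates of 2xSCS70 the counts were 0 and 0 (against 2.44% and 1.63%). Replicate 2 was above replicate 1 for 34 members and below for 8 in 2xSCS2F10, with a median log2 ratio of 0.40 against 0.00 over all genes, and above for 13 and below for 29 in 2xSCS70, with a median of -0.08.

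Bnip3, a mitophagy receptor whose promoter window above holds 5 core matches, had 10.9 and 42.4 CPM, a ratio of 3.89 (3.34 to 4.55), and 25.8 and 26.5 CPM in 2xSCS70. Aldoc had a ratio of 3.06 (2.65 to 3.53) in 2xSCS2F10 and of 0.551 (0.295 to 0.993) in 2xSCS70. Eno2, with no core in its window, had a ratio of 2.62 (1.97 to 3.53) in 2xSCS2F10 and of 1.02 (0.913 to 1.13) in 2xSCS70. These 3 were also at least 2-fold higher when the libraries were scaled by their totals alone or taken from the deposited RPKM.

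The ratio was 2.20 (1.96 to 2.48) for Pdk1 and 2.02 (1.88 to 2.17) for Slc16a3. Ankrd37, a HIF target coding for an ankyrin repeat protein, had 0.719 and 1.57 CPM, on 14 and 30 fragments, and a ratio of 2.19 with the wide interval of 1.13 to 4.47. These 3 fell short of 2-fold with library totals or RPKM. There 3 members (7.14%) were higher, against 4.68% of all genes with library totals and 4.28% with RPKM, and 2, Pfkfb4 and Slc16a1 (4.76%), were lower, against 9.46% and 10.3%. Hif1a lay just under the limit at 1.96 (1.89 to 2.03), against 1.06 (1.03 to 1.09) in 2xSCS70.

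At a limit of 1.5-fold, 12 members were higher in replicate 2 of 2xSCS2F10 (28.6%, against 13.2% of all genes), adding Hif1a, P4ha1, Ldhb, Slc2a1, Pfkl and Ndrg1, and 3 were lower (7.14%, against 13.2%). The lower ones were Pfkfb4 with a ratio of 0.511 (0.356 to 0.724), Slc16a1 with 0.529 (0.506 to 0.553) and Epas1 with 0.605 (0.482 to 0.755). In 2xSCS70 the same limit was passed by Eno1 upward (2.38%, against 5.17% of all genes) and by Aldoc downward (2.38%, against 3.59%). In replicate 2 of 2xSCS2F10 all 8 smooth muscle markers were above replicate 1 as well, with a median log2 ratio of 0.86, and the Rn45s share was 8.27% against 3.74%; the part of either in the members' ratios was not tested. With Rn45s and Lars2 (0.732% and 2.13% of fragments) left out of the scaling, an alternative chosen after seeing the data, the counts past 2-fold were again 6 and 0. TMM scaling already trims extreme genes, so leaving out these rows could change little. It does not bear on the part of Rn45s in the ratios.

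For Bnip3, Pdk1, Ankrd37 and Hif1a, the direction between the lines differed with the 2xSCS2F10 library left out. Bnip3 had a log2 change between the lines of -0.03 ± 0.61 SE with all libraries (edgeR adjusted p = 0.974), of -0.71 without replicate 1 of 2xSCS2F10 and of 1.26 without its replicate 2. In the same order the values were -0.42 and 0.73 for Pdk1, -0.39 and 0.75 for Ankrd37 and -0.03 and 0.96 for Hif1a. Pdk3, Ndrg1, P4ha2 and Kdm3a also changed from below to above 0 in that order. Epas1 changed the other way, from 0.20 to -0.52.

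**Figure D4:**
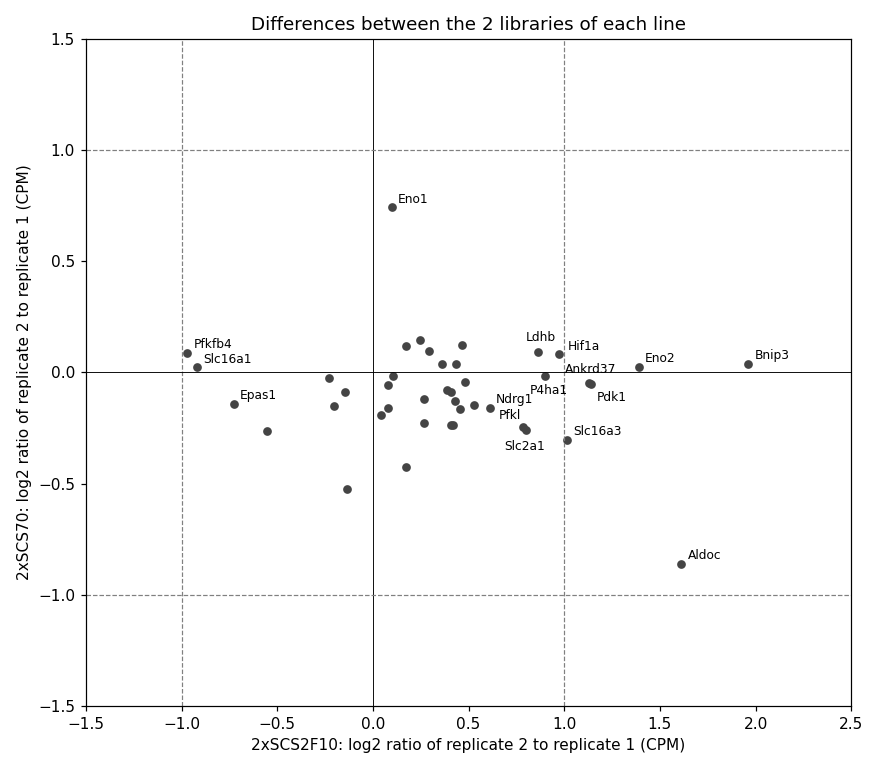
Log2 ratio of replicate 2 to replicate 1 in CPM for the 42 members tested, in 2xSCS2F10 (horizontal) and in 2xSCS70 (vertical), with names for members past 1.5-fold in either line and dashed lines at 2-fold. The points spread along the horizontal axis, with 6 beyond the right dashed line and 0 beyond the left, and stay within the dashed lines on the vertical axis.

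Other genes of both pathways were read from lists that do not include the members. Of 37 further tested genes of glucose use, Pkm and Eno3 among them, 2 were higher (5.41%, against 18.8% of all genes) in 2xSCS70. There, 10 were lower (27.0%, against 21.8%), and the median log2 change was -0.23. G6pdx, the entry enzyme of the pentose phosphate pathway, rose 1.59-fold from 55.8 and 46.4 CPM to 82.6 and 80.0 CPM, and Pfkfb2 rose 1.41-fold. G6pc3, a glucose 6-phosphatase, fell 16.1-fold from 16.8 and 15.6 CPM to 0.943 and 1.07 CPM (edgeR adjusted p = 0.00065). Pck2, the mitochondrial enzyme that makes phosphoenolpyruvate from oxaloacetate, fell 3.40-fold from 206 and 195 CPM to 60.01 and 58.1 CPM. The glycogen phosphorylase gene Pygb fell 2.99-fold and Tigar, which lowers fructose 2,6-bisphosphate, fell 1.85-fold, while Pygl had 15 and 31 fragments in 2xSCS2F10 and 1 and 0 in 2xSCS70.

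Of 41 tested genes on a second list of hypoxia and HIF genes, 3 were higher in 2xSCS70 (7.32%, against 18.8% of all genes) and 14 lower (34.1%, against 21.8%), with a median log2 change of -0.38. Vegfa, the angiogenic growth factor that is the best known HIF target, fell 9.14-fold from 364 and 435 CPM to 48.1 and 39.3 CPM (edgeR adjusted p = 0.0007). Angptl4, a secreted lipase inhibitor, fell 17.5-fold from 18.4 and 13.9 CPM to 0.943 and 0.904 CPM. Vldlr, a lipoprotein receptor, fell 3.54-fold and Hmox1, the heme oxygenase, fell 2.10-fold, while Tmem45a had 773 and 936 fragments in 2xSCS2F10 and 1 and 2 in 2xSCS70. Tfrc, the transferrin receptor, rose 1.52-fold and the cytokine gene Mif 1.40-fold, and Hif3a, which encodes a further alpha subunit, had 0 and 0 fragments against 13 and 24. Of the same list, 5 genes were at least 2-fold higher in replicate 2 than in replicate 1 of 2xSCS2F10 (12.2%, against 6.51% of all genes) and 1 was lower, with 27 above against 13 below. The further genes of glucose use did not show this rise. There, 2 were at least 2-fold higher (5.41%) and 2 lower, with 17 above against 20 below and a median log2 ratio of -0.11.

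By position, 8 members lie on chromosome 6: Slc2a3, Hk2, Tpi1, Gapdh, Eno2, Ldhb, Vhl and Kdm3a, of which Slc2a3, Hk2, Gapdh and Ldhb were lower and Eno2 higher in 2xSCS70. Over all 732 tested genes of that chromosome, 75 were higher and 267 lower, with a median log2 change of -0.35, against 0.02 over the genome. Hif1a and Egln3 lie on chromosome 12, where the median was 0.37. A further 6 members, Gpi1, Aldoa, Ldha, Egln2, Bnip3 and Adm, lie on chromosome 7, and of these only Gpi1 passed, as lower. On that chromosome 271 of 1075 tested genes were higher and 149 lower, with a median of 0.27. The part of these chromosome-wide differences in the members' values was not tested.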

How the data were processed

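Polyadenylated RNA was sequenced from 2 libraries of each line. The authors deposited raw counts per gene and library, per the file headers. The submitters' processing notes name the build mm10 and TopHat2 2.0.6, HTSeq and Bowtie; no gene annotation is named in the sources used here. The authors also deposited RPKM, per the file headers, which divide the count by coding length and by a fixed read number of the library. The library kit does not mark strand. All counts were even, so 2 counts were taken as 1 fragment, and 25 gene names were restored from the other tables. Headers carry the mark L1 for replicate 1 and L2 for replicate 2 of both lines, without explaining it.

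Groups follow the line named in the labels. Lines were compared with edgeR 4.0.16 (quasi-likelihood, TMM scaling, filterByExpr) in R 4.3.3, checked on simulated counts; the SE is the absolute log2 change over the square root of F. The common biological coefficient of variation was 20.4%. Replicates of a line were compared as ratios of scaled CPM. Related genes were compared as shares of RPKM. Near-identical copies of each member's longest coding sequence were sought with blastn among all GENCODE M21 transcripts. Promoter windows are RefSeq sequences of build GRCm38.p6, taken at the start site nearest the gene row, and 39 of 43 members matched. Alternatives were a replicate block, other scalings and filters, each library left out, DESeq2 1.42.0, limma 3.58.1 (voom, and log2(RPKM + 1)) and a test against 1.5-fold; tables and plots used Python 3.11.15.

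The members and lists were chosen with earlier results of these data known. Named with values in every library were the HIF subunits and oxygen sensors, all called members, members past 2-fold between the 2xSCS2F10 libraries and members of the related sets, except Pdk3, given as a range. Up to 5 called genes each way of the 2 further lists were also named, some of them by fold only. Pkm and Eno3, which did not pass, were added after their values were seen. 1 gene of the second list is not reported here. Intervals and floors cover counting error only.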

Additional observations from a re-analysis of the deposited data

How the results depend on the processing

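With the replicate number as a replicate block, 4 members were higher and 12 lower (2381 and 2841 of all genes), losing Hif1an and Ddit4; no paired source is labelled, and deviations of same-numbered libraries correlated at 0.04 over genes. RLE scaling, DESeq2 (5 higher, 15 lower), limma-voom (5 and 11), upper quartile scaling (6 and 10), no filter (5 and 10) and a 5 CPM filter (5 and 9) kept the counts within 1.5 times; upper quartile scaling moved the median log2 change of all genes to 0.11 and RPKM to 0.15. The test against 1.5-fold called 3 and 4 members and 1338 and 1756 genes, and limma on RPKM called 4 members and 1828 genes lower. Leaving out 1 library gave 0 to 15 members higher, 1 to 24 lower, 291 to 4772 genes higher and 559 to 4795 lower. Signs reversed for members that had not passed: without 1 library, Pdk1 ran from -0.42 to 0.73, Pdk3 from -0.012 to 0.25, Hif1a from -0.027 to 0.96, Epas1 from -0.52 to 0.20, Bnip3 from -0.71 to 1.26, Ankrd37 from -0.39 to 0.75, Ndrg1 from -0.33 to 0.29, P4ha2 from -0.085 to 0.36 and Kdm3a from -0.47 to 0.026. Bnip3 was 0.27 with the replicate block, 0.068 with upper quartile scaling, 0.0072 with the 5 CPM filter, 0.28 with voom and 0.45 with RPKM; Ndrg1 was 0.045 with upper quartile scaling and 0.22 with RPKM, and Epas1 was 0.025 and Kdm3a 0.023 with RPKM. Between replicates of 2xSCS2F10, library totals and RPKM gave 3 members higher and 2 lower, and a 1.5-fold limit 12 and 3; in 2xSCS70 that limit gave 1 and 1, and RPKM 1 lower. Shares from counts with no length correction were, for 2xSCS2F10 and 2xSCS70, 8.27% and 0.853% for Slc2a3, 39.4% and 25.4% for Hk2, 15.1% and 21.4% for Pfkp, 3.62% and 0.841% for Ldhb, 40.7% and 41.3% for Pdk1 and 19.99% and 34.9% for P4ha2, and for 2xSCS70 26.7% for Pfkfb4, 37.3% for Slc16a3, 1.74% for Epas1 and 22.9% for Bnip3. The cause of these shifts was not tested. Depth limits members with few fragments, such as Adm, Ankrd37 and Slc2a3, and with 2 libraries a line no spread within a line is well known.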

Other observations

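Among the second list of hypoxia and HIF genes, 4 of those at least 2-fold higher in replicate 2 than in replicate 1 of 2xSCS2F10 are given here, chosen after their values were seen. Igfbp3, a binding protein of insulin-like growth factors, had 42.7 and 268 CPM, and Ak4, a mitochondrial adenylate kinase, had 13.7 and 45.4 CPM. The circadian repressor Bhlhe41 had 1.39 and 3.15 CPM and the nuclear receptor Rora 1.64 and 3.52 CPM. In 2xSCS70 the same 4 genes had 1.09 and 1.36 CPM, 20.2 and 17.4 CPM, 7.58 and 5.26 CPM, and 4.32 and 4.81 CPM. Stc1, a secreted glycoprotein, went the other way in 2xSCS2F10, with 4.16 and 1.84 CPM. With 1 library on each side these differences have no test.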
